A study of Mus musculus with 7 samples.

Results

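The members described here are the mouse genomic copies of ETn, MusD and MMERVK10-type endogenous retroviruses. They were taken as the rows of the deposited retrotransposon count table whose RepeatMasker name starts with ETnERV, MMETn, RLTRETN, MMERVK or RLTR10. This rule found 23725 of the 3494995 loci of the table, 0.679% of them, under 20 of its 875 element names. A locus is 1 RepeatMasker annotation, so that a provirus is usually cut into several loci. Joining rows of the same strand within 1000 bases gave 11252 insertions.

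RNA-Seq had been performed on whole fetal mouse testes at embryonic day 14.5, with the strain background given as C57BL/6 for both groups. The 3 libraries labelled WT (wild-type) and the 4 libraries labelled Mutant (homozygous for Glis3 zf5) were each made from the RNA of 1 pair of testes. Glis3 zf5 is a germline deletion in exon 4 and parts of the flanking introns, present in every cell of the embryo, that disrupts DNA binding of the zinc finger transcription factor GLIS3. The question behind the comparison was whether retrotransposons are expressed differently when GLIS3 is not functional.

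ETn elements are early transposons that code for no functional proteins of their own and move with the proteins of related MusD elements. Both carry long terminal repeats (LTRs) named RLTRETN, from which transcription starts. MMERVK10 and MMERVK9 are further groups of the same ERVK superfamily, and RLTR10 names are LTRs and internal sequence of that group. Such copies are held silent by TRIM28 and SETDB1, which place repressive histone methylation, and by DNA methylation, and in fetal male germ cells also by the piRNA pathway.

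The LTR sequences that carry start sites are shown first, because the LTR is the part of the element that drives its transcription. Of the 32851 promoter windows of the RefSeq annotation (GRCm38.p6, 250 bases before to 50 bases after a gene's start), 96 overlapped a member. In 29 windows the start site lay inside a member LTR on its strand, 24 of them windows of genes that code for no protein. Among the windows of genes that code for no protein, those of the 3 LTRs with the most reads and of 1 ETn LTR, which had no read, are given here from 5′ to 3′, with a core promoter motif (TATANAA) and the polyadenylation signal (AATAAA) in capitals.
RLTR10C copy at the start of LOC108168762, chr2:60896847-60897146, minus strand: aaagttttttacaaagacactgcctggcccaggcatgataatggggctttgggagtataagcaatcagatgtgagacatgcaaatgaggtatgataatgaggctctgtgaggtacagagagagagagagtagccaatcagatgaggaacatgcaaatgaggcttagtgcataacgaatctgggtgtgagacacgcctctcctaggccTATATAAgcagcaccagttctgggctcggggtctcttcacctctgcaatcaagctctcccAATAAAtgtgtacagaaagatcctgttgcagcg
RLTR10C copy at the start of Gm39196, chr8:72125875-72126174, minus strand: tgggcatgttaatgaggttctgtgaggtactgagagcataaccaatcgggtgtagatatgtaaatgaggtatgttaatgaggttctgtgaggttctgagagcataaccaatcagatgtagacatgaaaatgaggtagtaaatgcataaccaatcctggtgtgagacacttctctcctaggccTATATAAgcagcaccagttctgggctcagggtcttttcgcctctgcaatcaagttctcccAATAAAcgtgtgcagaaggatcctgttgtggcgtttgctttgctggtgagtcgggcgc
RLTR10 copy at the start of Gm13269, chr2:14766973-14767272, minus strand: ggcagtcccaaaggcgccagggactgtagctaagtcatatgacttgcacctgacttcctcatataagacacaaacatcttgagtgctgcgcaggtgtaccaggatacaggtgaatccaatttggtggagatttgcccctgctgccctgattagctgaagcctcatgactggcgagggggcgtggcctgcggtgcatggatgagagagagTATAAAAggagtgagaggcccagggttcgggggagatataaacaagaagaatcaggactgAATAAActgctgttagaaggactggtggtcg
RLTRETN_Mm copy at the start of Gm33296, chr8:85159125-85159424, minus strand: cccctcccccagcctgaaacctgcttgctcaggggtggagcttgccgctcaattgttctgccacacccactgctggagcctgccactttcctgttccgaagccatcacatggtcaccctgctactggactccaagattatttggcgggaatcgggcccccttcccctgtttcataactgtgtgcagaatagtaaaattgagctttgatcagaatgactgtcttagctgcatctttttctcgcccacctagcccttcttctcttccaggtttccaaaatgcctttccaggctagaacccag

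The 3 RLTR10 windows held TATANAA followed by AATAAA in the same order and orientation, and the ETn window held neither. The pair of RLTR10C windows shared an unbroken run of 39 bases, while no other pair of the 4 windows shared a run of more than 11. Over the 29 LTR windows, 16 held TATANAA and 20 held AATAAA on the strand of the gene, or 55.2% and 69.0%, against 7.20% and 11.3% of all 32851 windows. On the other strand, 1 and 0 of the 29 windows held them, against 5.91% and 10.5% of all windows. The pair of motifs stood together in 14 of the 29 windows and in 1.73% of all windows. Such a match describes the letters of a window and is not a measured start or end of a transcript. The RLTR10C copy at LOC108168762 was read 14, 7 and 11 times in the libraries labelled WT and 9, 12, 4 and 12 times in Mutant, with a log2 fold change of 0.08 ± 0.40 (SE). The copy at Gm13269 was read between 1 and 8 times per library, with a log2 fold change of -0.15 ± 0.57 (SE). The reads at these 2 copies overlapped between groups.

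Between 3454317 and 4670830 reads per library fell on the annotated elements, and between 22311 and 31290 of them on members, or 0.586% to 0.737%. Glis3 mRNA was 7.63, 6.89 and 2.91 FPKM in the libraries labelled WT and 3.86, 3.26, 2.90 and 2.66 FPKM in Mutant. WT replicate 3 thus lay within the Mutant range and is called the library labelled WT replicate 3. FPKM covers exons that the allele retains. A single MMVL30-int locus, not a member, took 1.47%, 2.06% and 0.0720% of the reads of WT replicate 1 and Mutant replicates 1 and 2, against 5.85% to 7.02% in the other 4 libraries. These 3 libraries also differed from the other 4 at several members, so values within each of these sets are given beside the results. Apart from the exact permutation tests, the p-values below rest on a spread between embryos estimated in part from other loci, names or genes. Such p-values, and the SE beside them, can be too small where a locus varies more between embryos than others of like depth. The reads had been counted without regard to strand and only where they mapped to 1 place, so that young copies that are near-identical to others are undercounted, and reads of a locus inside a gene cannot be told apart from reads of that gene.

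Of the 23725 members, 9054 (38.2%) had a read in some library and 2057 (8.67%) averaged 1 read or more over the libraries and were tested. The tested members held 91.8% of all reads on members. Reads were concentrated further, with 14.5% of them on 6 loci and 52.0% on 100 loci. ETn and MusD internal sequence took 54.4% of the reads on members, MMERVK9 internal sequence 15%, MMERVK10 internal sequence 14.7%, the RLTR10 and MMERVK10D3 LTRs 10.7%, RLTR10 internal sequence 3.07% and the ETn LTRs 2.09%. Of the 11252 insertions, 5389 were an LTR alone and 2181 joined internal sequence to an LTR. Loci outside annotated genes held 53.6% of the reads, those in introns 32.1% and those that touch an exon 14.3%.

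The level of each library is given in CPM, the count scaled to library sizes that edgeR's TMM method gave for all loci. MMETn-int, the internal sequence of ETn, had the most reads. Its summed level was 1511, 1106 and 1580 CPM in the libraries labelled WT and 1194, 1537, 1728 and 1630 CPM in Mutant. WT replicate 2 was lowest and the groups overlapped, with a log2 fold change of 0.12 ± 0.14 (SE; adjusted p = 0.612, edgeR quasi-likelihood test over all 862 names with enough reads). Without WT replicate 2 the sign turned.

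ETnERV3-int summed to 1170, 1238 and 1104 CPM in the libraries labelled WT and 1445, 1992, 1291 and 1342 CPM in Mutant. On this TMM scale all 4 Mutant libraries lay above the 3 labelled WT, and Mutant replicate 2 was the highest. The mean of the libraries labelled WT was 1171 ± 66.6 (SD, n = 3), against 1517 ± 323 (SD, n = 4) in Mutant. The log2 fold change of 0.37 ± 0.13 (SE) did not pass the threshold of 0.1 (adjusted p = 0.214, edgeR), and the exact permutation test gave p = 0.0857, where the smallest possible value is 0.0286. The log2 ratio was 0.55 among the 3 libraries with few MMVL30-int reads and 0.17 among the other 4. When the 10 loci with the most reads were left out, the sum was 333, 306 and 302 CPM against 525, 611, 298 and 314 CPM, so that Mutant replicates 3 and 4 no longer lay above the libraries labelled WT. The groups already overlapped with 3 loci left out, at 576, 597 and 539 CPM against 858, 1013, 584 and 584 CPM.

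MMERVK9E_I-int also stood higher in Mutant without overlap, at 601, 547 and 484 CPM in the libraries labelled WT against 607, 615, 618 and 621 CPM (log2 fold change 0.18 ± 0.07 (SE), adjusted p = 0.229, edgeR; exact permutation test, p = 0.0286). WT replicate 1 lay close to the Mutant libraries, and the log2 ratio was 0.02 among the 3 libraries with few MMVL30-int reads and 0.27 among the other 4. The separation of both names depended on the TMM factors, which ran from 0.914 (Mutant replicate 3) to 1.122 (WT replicate 1). With reads scaled to library totals alone, ETnERV3-int and MMERVK9E_I-int overlapped between groups. WT replicate 1 was then the highest library for MMERVK9E_I-int. On the TMM scale, separation upward was seen for 16.7% of all 862 element names, against which the 2 of 20 member names are to be read. No name of the table had all Mutant libraries below all those labelled WT on that scale.

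MMERVK10C-int summed to 733, 1137 and 766 CPM in the libraries labelled WT and 814, 752, 769 and 824 CPM in Mutant. WT replicate 2 stood apart from the other 6 libraries, and the log2 fold change of -0.15 ± 0.13 (SE; adjusted p = 0.515, edgeR) became 0.08 without it. RLTR10-int, likewise highest in WT replicate 2, was 185, 261 and 157 CPM against 211, 162, 173 and 211 CPM. ETnERV2-int was 334, 331 and 294 CPM against 373, 433, 335 and 333 CPM, and ETnERV-int was 231, 239 and 256 CPM against 263, 251, 309 and 278 CPM.

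Of the LTR names, RLTRETN_Mm, the LTR of ETn and MusD, was 128 ± 7.08 CPM (SD, n = 3) in the libraries labelled WT and 135 ± 8.40 CPM (SD, n = 4) in Mutant, with a log2 fold change of 0.08 ± 0.08 (SE). RLTR10C was 197 ± 8.02 and 211 ± 8.93 CPM. RLTR10A was 122 ± 19.6 and 124 ± 4.97 CPM, and the sum of the loci named RLTR10 was 103 ± 9.38 and 114 ± 11.1 CPM. In these 4 LTR names the groups overlapped. MMERVK9C_I-int, another internal sequence, was 343 ± 15.9 and 380 ± 15.8 CPM (log2 fold change 0.15 ± 0.06 (SE), adjusted p = 0.221, edgeR).

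None of the 20 member names passed the threshold, and 4 (ETnERV-int, ETnERV3-int, MMERVK9C_I-int and MMERVK9E_I-int) had an unadjusted p under 0.05, all higher in Mutant. Over all 862 names, 1 passed (0.116%), and an unadjusted p under 0.05 was found for 17.2% of names in the upward and 0.116% in the downward direction. The median log2 fold change was 0.082 over the 20 member names and 0.095 over all names. These values depended on the scaling. With library size only, 0 of the 20 member names had an unadjusted p under 0.05 (edgeR). Over all names, 38 were then higher and 19 lower at that p, against 148 and 1 in the reported fit. The medians were then 0.007 over the member names and 0.022 over all names. DESeq2 called 37 names, none of them a member.

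**Figure D1:**
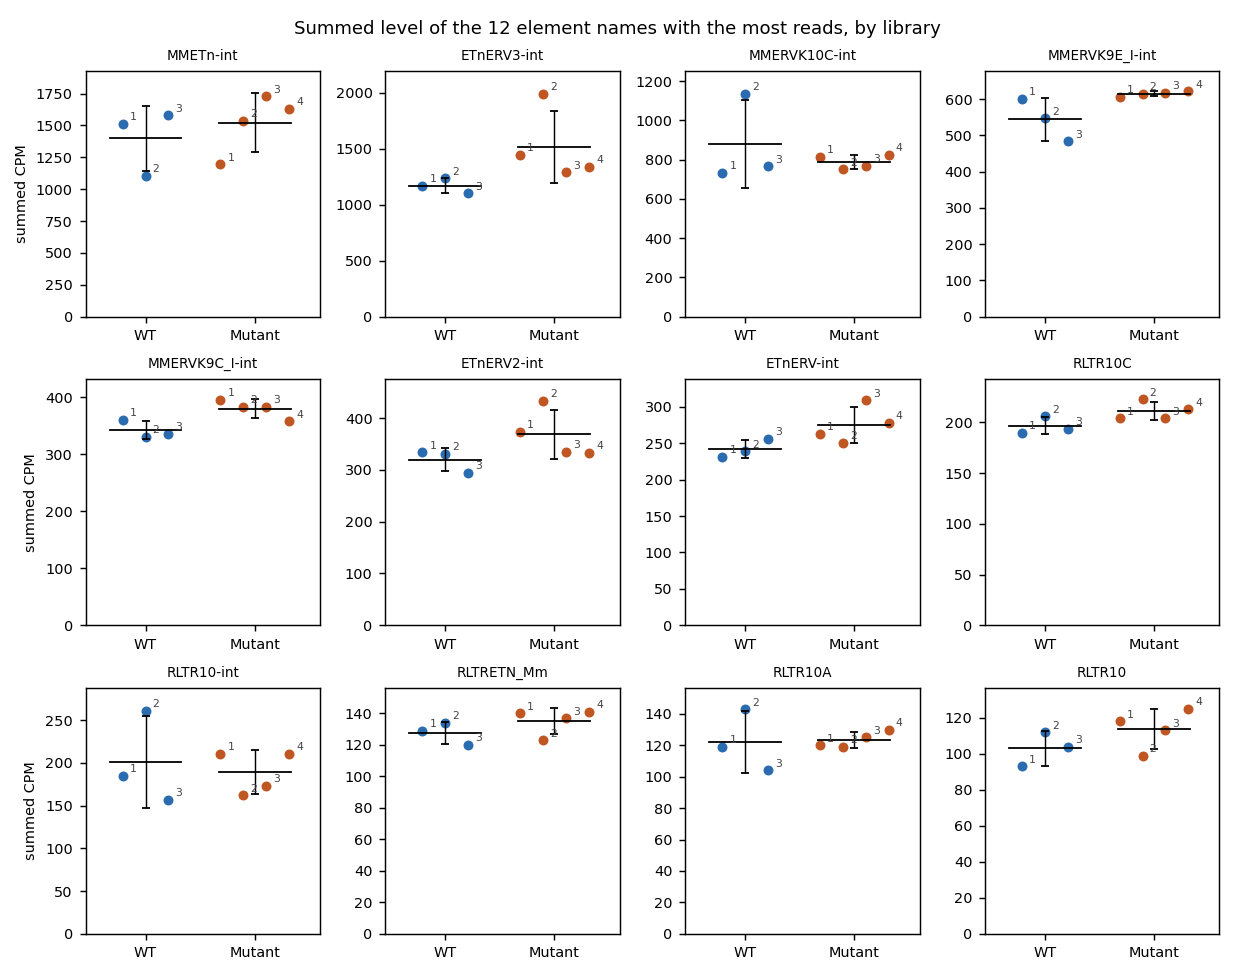
Summed level, in CPM on a linear axis from 0, of the 12 member names with the most reads in the 3 libraries labelled WT (blue) and the 4 Mutant libraries (orange). Points are libraries with their replicate number, the horizontal line is the group mean and the bar 1 SD. ETnERV3-int and MMERVK9E_I-int are the names whose groups do not overlap on this TMM scale, and MMERVK10C-int and RLTR10-int have their highest point in WT replicate 2.

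At the level of single loci, 23 of the 2057 tested members passed the threshold of 0.1 (1.12%), where 375 of all 464695 loci tested did (0.0807%). Of these, 15 were lower in Mutant (0.729% of tested members, against 0.0594% of all loci) and 8 were higher (0.389%, against 0.0213%). The groups were apart at 74 members that were higher (3.60%, against 3.12% of all loci) and 53 that were lower (2.58%, against 2.84%). An unadjusted p under 0.05 was found for 4.74% of all loci and for 196 members, of which 111 were higher (5.40%, against 2.50% of all loci) and 85 lower (4.13%, against 2.23%). All 23 were internal sequence. They were 11 of 619 tested ETn and MusD loci, 9 of 382 MMERVK10 loci and 3 of 141 RLTR10 internal loci, whereas none of the 353 MMERVK9 loci, 105 ETn LTRs and 457 RLTR10 and MMERVK10D3 LTRs passed. The 23 loci belonged to 18 insertions, and 19 of the 23 lay outside annotated genes, as did 1028 of the 2057 tested members.

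In the same fit, 3 of 1865 tested loci of the IAP retroviruses were higher and 36 lower, and of 3715 MERVL and MT2 loci 1 was higher and 2 lower. These differences between families were not tested.

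The number of calls differed between tools and settings. DESeq2 called 15 loci in all (0.00323%) and no member, with 57 members at an unadjusted p under 0.05. A mean of at least 10 reads left 1 of 365 members past the threshold (17 of all 60909 loci, 0.0279%). A robust edgeR fit, chosen after the data were seen, called 7 members (0.340%, against 0.0510% of all loci), all lower in Mutant. The groups did not overlap at 4 of the 23 loci.

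**Figure D2:**
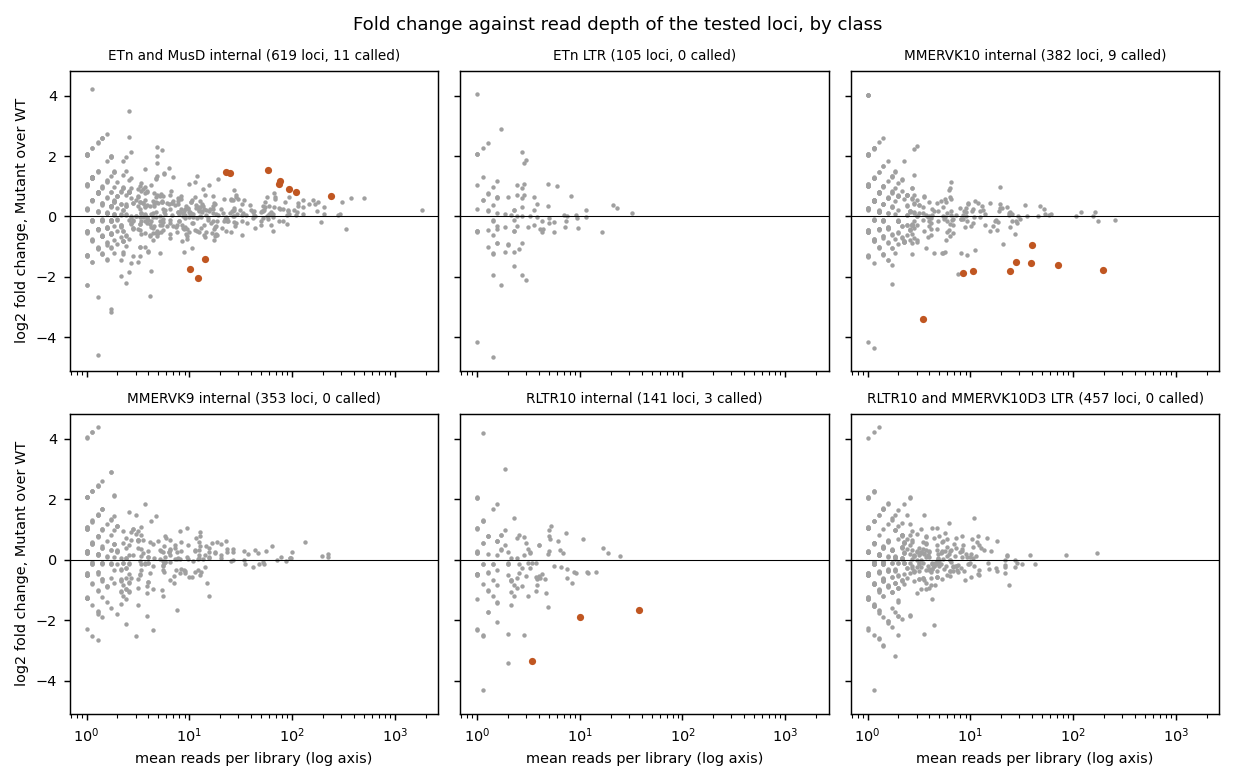
Log2 fold change (Mutant over WT) against mean reads per library, on a log axis, for the 2057 tested members in 6 classes. Orange points are the 23 loci past the threshold. In the MMERVK10 and RLTR10 internal classes they lie below 0, and in the ETn and MusD class 8 lie above 0 and 3 below. No LTR and no MMERVK9 locus is orange.

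The 15 falls were on 9 MMERVK10, 3 RLTR10 internal and 3 MMETn-int loci. The locus that passed under the most settings was a MMERVK10C-int locus of 1820 bases at chr11:98068322-98070141 (mm10), outside genes and 4279 bases from Gm11631. It had 90, 149 and 128 reads in the libraries labelled WT and 38, 14, 31 and 55 in Mutant, or 17.2, 40.1 and 29.5 against 10, 3.85, 9.10 and 14.7 CPM. All 4 Mutant libraries lay below the 3 labelled WT. The log2 fold change was -1.60 ± 0.21 (SE; adjusted p = 1.23e-10, edgeR; exact permutation test, p = 0.0286), and the locus passed in 14 of 15 alternatives, DESeq2 being the exception (adjusted p = 0.951). The locus was named because it passed and its groups do not overlap. Its permutation p, the smallest possible, follows from that choice and adds no separate support.

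The next locus of the same provirus, chr11:98070178-98071996, was 6.68, 22.1 and 18 CPM in the libraries labelled WT and 7.13, 2.2, 4.11 and 7.21 CPM in Mutant (log2 fold change -1.55 ± 0.24 (SE), adjusted p = 1.08e-06, edgeR), where WT replicate 1 overlapped Mutant. Another row, chr11:98072216-98072379, did not overlap, with 11, 25 and 10 reads against 4, 2, 3 and 5. Summed over its 6 rows and 5063 bases, the insertion was 27.7, 74.0 and 52.6 CPM in the libraries labelled WT against 20.1, 6.88, 15.8 and 24.6 CPM. The mean was 51.4 ± 23.2 CPM (SD, n = 3) in the first and 16.8 ± 7.53 CPM (SD, n = 4) in the second group. The log2 ratio was -1.04 among the 3 libraries with few MMVL30-int reads and -1.65 among the other 4. The library labelled WT replicate 3 was the second highest of the 7 at this insertion.

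Another 2 falls without overlap were MMETn-int loci. The first, of 3640 bases at chr1:191143081-191146720 and outside genes, had 23, 33 and 12 reads in the libraries labelled WT and 3, 4, 8 and 3 in Mutant (log2 fold change -2.05 ± 0.39 (SE), adjusted p = 0.00073, edgeR). It did not pass without WT replicate 2 (adjusted p = 0.553, edgeR). Summed over the insertion that holds it, the level was 5.34, 10.8 and 2.77 CPM in the libraries labelled WT. Mutant was 1.06, 1.10, 2.93 and 1.07 CPM, so that the groups overlapped for the insertion. The second, of 2014 bases at chr13:67684515-67686528, reaches into an exon of Zfp738, a gene of the zinc finger protein family. It had 26, 26 and 18 reads against 7, 5, 11 and 6 (log2 fold change -1.40 ± 0.35 (SE), adjusted p = 0.097, edgeR), and passed in 4 of 15 alternatives. Zfp738 mRNA itself was 7.64 ± 0.468 FPKM (SD, n = 3) in the libraries labelled WT and 7.81 ± 0.917 FPKM (SD, n = 4) in Mutant.

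The other 11 falls, and the 8 rises, had overlapping groups and are named here after their values were seen. The fall with the lowest adjusted p was a MMERVK10C-int locus at chr11:101650523-101653089, with 414 and 565 reads in WT replicates 1 and 2, 58 in the library labelled WT replicate 3 and 144, 66, 70 and 69 in Mutant. The library labelled WT replicate 3 was the lowest of all 7 and Mutant replicate 1 the third highest. The log2 fold change was -1.77 ± 0.17 (SE; adjusted p = 1.04e-19, edgeR), but the exact permutation test gave p = 0.143 and the robust fit an adjusted p of 0.981 (edgeR).

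A MMERVK10C-int locus at chr12:17862052-17866177 had 41, 84 and 4 reads in the libraries labelled WT and 16, 3, 11 and 12 in Mutant (log2 fold change -1.80 ± 0.29 (SE), adjusted p = 2.74e-06, edgeR). The RLTR10-int locus upstream of it, chr12:17857263-17858254, had 65, 116 and 12 reads against 37, 11, 11 and 11. Both had WT replicates 1 and 2 and Mutant replicate 1 as their 3 highest libraries, as did 5 of the 15 falls. WT replicate 2 was the highest library in 14 of the 15. In 10 of the 15, the library labelled WT replicate 3 was at or below the highest Mutant library. MMERVK10D3_I-int at chr7:43235521-43241627, a locus of 6107 bases between 2 MMERVK10D3 LTRs, was 16.4, 17.5 and 6.46 CPM in the libraries labelled WT and between 6.16 and 7.43 CPM in Mutant (log2 fold change -0.93 ± 0.23 (SE), adjusted p = 0.0976, edgeR). It lies 8679 bases from the non-coding RNA gene EU599041, whose RNA was 7.15, 6.12 and 3.42 FPKM against 3.30, 2.64, 3.98 and 2.59 FPKM.

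The remaining falls were smaller in reads. A MMETn-int locus at chr6:3159405-3163771 had 44 reads in WT replicate 1 and between 3 and 6 in the other 6 libraries. RLTR10-int at chr2:101119949-101120473 had 24, 30 and 1 reads in the libraries labelled WT and 12, 3, 1 and 0 in Mutant. MMERVK10C-int at chr1:155766271-155769215 in an exon of the pseudogene Gm37089, had 2, 19 and 1 reads against 1, 0, 0 and 1, with nearly all reads in WT replicate 2. As a description of loci chosen as lower in these same libraries, the Mutant mean was below that of the libraries labelled WT at all 15, both among the 3 libraries with few MMVL30-int reads, where 1 library stands against 2, and among the other 4.

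**Figure D3:**
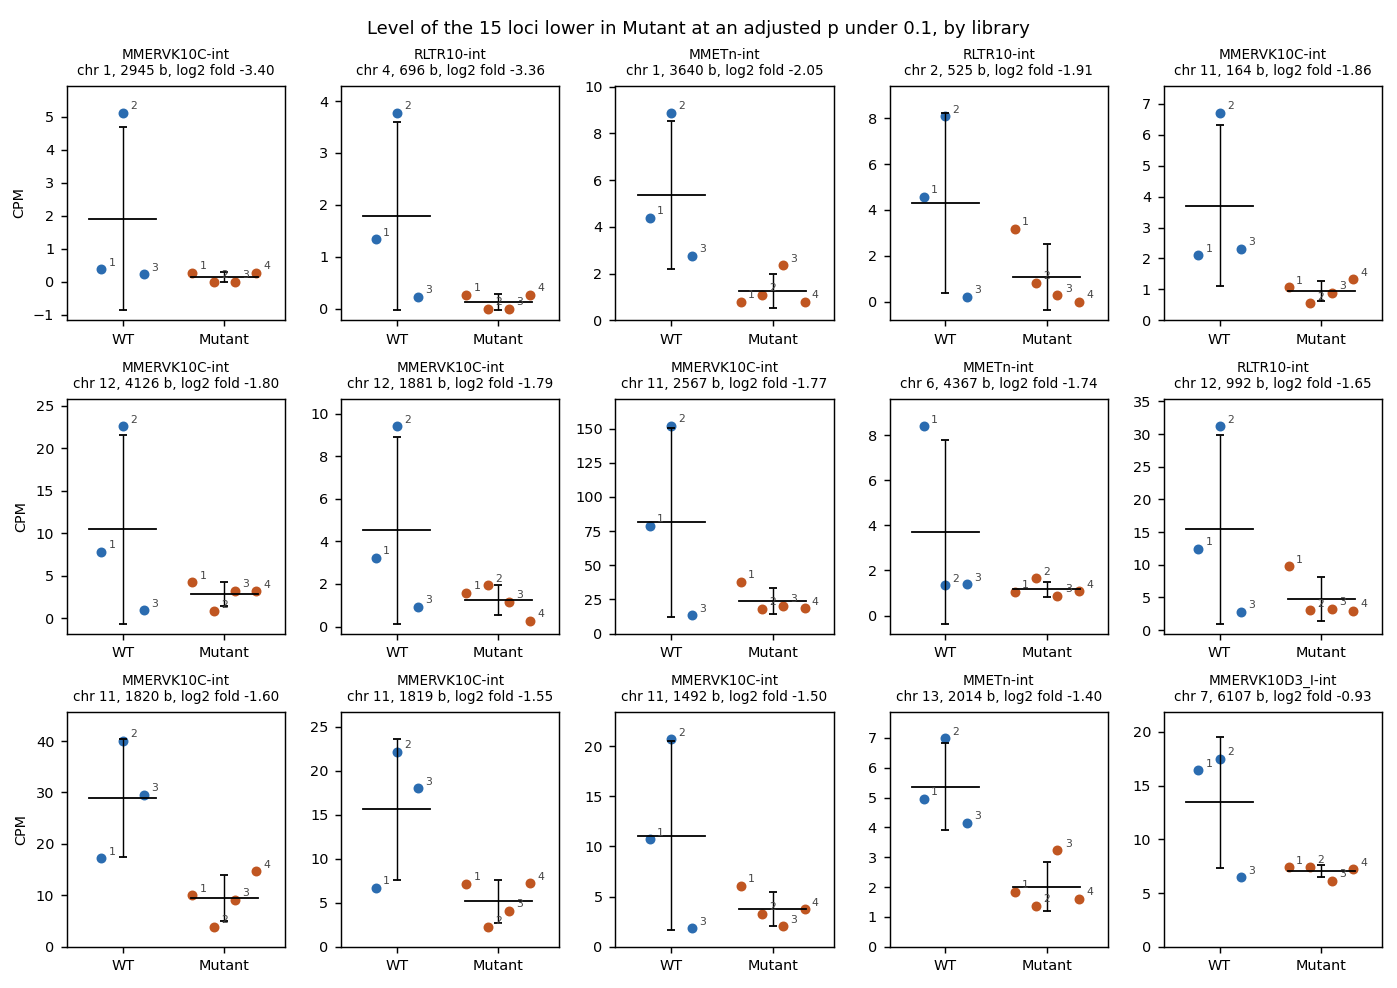
Level in CPM, on linear axes, of the 15 loci that passed the threshold and were lower in Mutant, in the 3 libraries labelled WT (blue) and the 4 Mutant libraries (orange), with the group mean (line) and 1 SD (bar). WT replicate 2 is the highest point in 14 panels, and the groups do not overlap in 4.

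The 8 rises were 7 ETnERV3-int loci and 1 MMETn-int locus, and none separated the groups. The largest was ETnERV3-int at chr9:88869510-88871945, in an intron of Gm26611. It had 87, 4 and 11 reads in the libraries labelled WT and 148, 155, 6 and 2 in Mutant, or 16.6, 1.08 and 2.54 against 39.1, 42.6, 1.76 and 0.534 CPM. WT replicate 1 and Mutant replicates 1 and 2 were high and the other 4 libraries low. The log2 fold change was 1.54 ± 0.22 (SE; adjusted p = 3.74e-08, edgeR), and the exact permutation test gave p = 0.400.

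ETnERV3-int at chr12:20062924-20064701 had 40 reads in WT replicate 1, 57 and 62 in Mutant replicates 1 and 2, and 0 in each of the other 4 libraries. The neighbouring row of the same insertion, chr12:20058890-20062903, had 41, 60 and 65 reads in those 3 libraries and at most 5 in the others. ETnERV3-int at chr18:10688053-10691880, in an intron of the hydrolase gene Abhd3 and on the opposite strand to it, had 108, 24 and 25 reads against 149, 189, 19 and 19. Abhd3 mRNA was 10.3, 10.7 and 10.4 FPKM against 13.5, 12.8, 13.3 and 13.9 FPKM (log2 fold change 0.34 ± 0.06 (SE), adjusted p = 0.133, limma) and was high in all 4 Mutant libraries, so its libraries did not follow those of the ETnERV3-int locus.

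All 7 ETnERV3-int rises had WT replicate 1 and Mutant replicates 1 and 2 as their 3 highest libraries. Among these 3 libraries, as a description of loci chosen as higher in these data, the mean was higher in Mutant at all 8 rises. The log2 ratios were 0.83 to 1.30 for ETnERV3-int, but this sets 1 library against 2. Among the other 4 libraries the mean was higher in Mutant at 3 of the 8. With a term for this difference between libraries in the fit, chosen after the data were seen, none of the 7 ETnERV3-int rises passed. Of 32 ETnERV3-int loci with a mean of at least 20 reads, 11 had the same 3 highest libraries, as did 22 of all 203 such members. The cause of the difference between these libraries was not tested.

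The MMETn-int rise, chr5:90925718-90930119, had another order, with 23 and 35 reads in WT replicates 1 and 2, 97 in the library labelled WT replicate 3, and 87, 152, 58 and 72 in Mutant (log2 fold change 1.08 ± 0.21 (SE), adjusted p = 0.000567, edgeR). It lies between 2 RLTRETN_Mm LTRs and 816 bases from Gm42530. WT replicates 1 and 2 were the lowest, and the library labelled WT replicate 3 lay within the Mutant range. Without WT replicate 1 it did not pass (adjusted p = 0.772, edgeR).

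**Figure D4:**
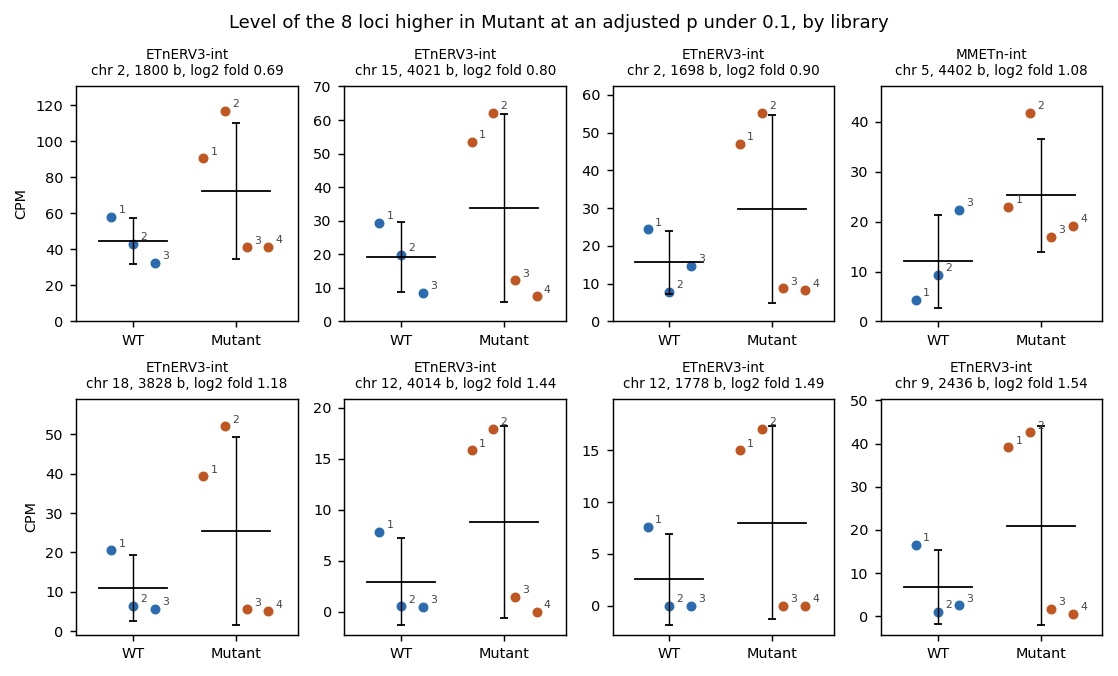
Level in CPM, on linear axes, of the 8 loci that passed the threshold and were higher in Mutant, drawn as in the plot of the lower loci. In the 7 ETnERV3-int panels WT replicate 1 and Mutant replicates 1 and 2 are the 3 highest points, and in none of the 8 panels are the groups apart.

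Some members differed widely between libraries without following the labels, and 3 are named after their values were seen. MMETn-int at chr17:32370064-32375738 lies in an intron of Wiz, a histone methyltransferase partner gene on the opposite strand. It also lies in an intron of Gm26858, a non-coding RNA gene on its own strand. The locus had 4, 485 and 754 reads in the libraries labelled WT and 6, 6, 517 and 571 in Mutant. WT replicate 1 and Mutant replicates 1 and 2 were near 0 there, the reverse of the ETnERV3-int loci (log2 fold change -0.40 ± 0.16 (SE), adjusted p = 0.791, edgeR). MMETn-int at chr7:4057912-4060742, in an intron of Lair1, had 202, 10 and 11 reads against 69, 144, 9 and 15, high in the same 3 libraries. MMETn-int at chr4:147544879-147549232 had 5, 67 and 98 reads against 43, 1, 66 and 68, with Mutant replicate 1 between the others.

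The 6 members with the most reads per kilobase, among loci of at least 300 bases, did not pass the threshold. ETnERV3-int at chr7:106267266-106269782 led with 726 reads per kilobase, at 331, 492 and 466 CPM in the libraries labelled WT and 327, 437, 586 and 640 CPM in Mutant (log2 fold change 0.21 ± 0.15 (SE), adjusted p = 0.980, edgeR). The groups overlapped, with WT replicate 1 and Mutant replicate 1 the lowest. MMERVK10C-int at chr5:114822402-114822894 (515 reads per kilobase) lies in an exon of 1500011B03Rik, and RLTR10E at chr1:179528527-179528847 (268 reads per kilobase) in an exon of Tfb2m, a mitochondrial transcription factor gene. They were 67.3 ± 15.3 and 20.7 ± 3.24 CPM (SD, n = 3) in the libraries labelled WT and 61.5 ± 1.66 and 22.7 ± 2.95 CPM (SD, n = 4) in Mutant. The other 3 were ETnERV2-int at chr7:48156783-48157107, MMERVK9E_I-int at chr7:48165760-48166835 and MMERVK9E_I-int at chr2:150335105-150335711, with log2 fold changes of 0.46 ± 0.19, 0.17 ± 0.17 and 0.24 ± 0.19 (SE).

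Genes that silence these elements were compared from 2 lists. Of 27 tested genes of the ERV silencing list, none passed the threshold of 0.05 over all 13988 genes tested, where 1 gene did (0.00715%, limma on log2(FPKM + 0.5), on which scale the fold changes of genes are given). At an unadjusted p under 0.05, 6 were lower and 1 higher in Mutant, against 8.79% and 8.21% of all genes, and the median log2 fold change was -0.08, against 0.008 over all genes. Setdb1, the histone methyltransferase, was 49.0, 43.0 and 41.0 FPKM in the libraries labelled WT and 38.3, 38.4, 36.5 and 36.9 FPKM in Mutant. The groups did not overlap (log2 fold change -0.23 ± 0.07 (SE), adjusted p = 0.194, limma). Trim28, the corepressor that recruits SETDB1, was 223 ± 53.0 FPKM (SD, n = 3) and 203 ± 10.9 FPKM (SD, n = 4). Dnmt1, the maintenance DNA methyltransferase, was 51.0 ± 10.2 and 47.6 ± 1.93 FPKM.

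The genes of the list that act in germ cells varied more. Dnmt3l, a cofactor of de novo DNA methylation, was 0.883, 7.35 and 0.0754 FPKM in the libraries labelled WT and 1.95, 0.424, 0.0813 and 0.0826 FPKM in Mutant. Morc1, a repressor of transposons in the male germline, was 11.1, 26.6 and 1.05 FPKM against 8.05, 2.30, 0.795 and 0.940 FPKM. Both were highest in WT replicate 2, and the groups overlapped (log2 fold changes -0.98 ± 0.85 and -1.61 ± 0.98 (SE)).

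All 18 tested genes of the piRNA list had lower fitted levels in Mutant, 10 of them at an unadjusted p under 0.05 and none past the threshold, with a median log2 fold change of -1.09. Mael, a piRNA pathway gene, was 67.1, 128 and 18.8 FPKM in the libraries labelled WT and 30.6, 18.2, 15.7 and 12.9 FPKM in Mutant (log2 fold change -1.55 ± 0.57 (SE), adjusted p = 0.241, limma). Piwil4, the nuclear PIWI protein of fetal germ cells, was 2.62, 11.2 and 0.268 FPKM against 1.64, 0.369, 0.312 and 0.277 FPKM. Piwil2 was 22.5, 25.8 and 7.02 FPKM against 10.9, 7.59, 7.43 and 5.59 FPKM. In each of the 3 genes, WT replicates 1 and 2 and Mutant replicate 1 were the highest libraries. Without the library labelled WT replicate 3, 15 piRNA genes and 1 gene of the silencing list passed (limma), all lower in Mutant. In the same fit 8 of the 10 germ cell markers described next were lower and 1 of 8 Sertoli cell markers was higher, and of all 14019 genes tested 3.99% were lower and 1.16% higher.

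Germ cell markers were compared in the same libraries. The 10 markers (Dazl, Ddx4, Pou5f1, Dppa3, Dppa4, Sall4, Sycp3, Mael, Kit and Nanos3) summed to 1435, 1154 and 585 FPKM in the libraries labelled WT and 685, 576, 548 and 487 FPKM in Mutant, and all 10 had lower fitted levels in Mutant, 6 at an unadjusted p under 0.05. The 20 piRNA genes summed to 430, 585 and 165 FPKM against 208, 143, 145 and 120 FPKM. Ddx4 and Mael are in both lists, and without them the piRNA sum was 262, 362 and 93.7 FPKM against 138, 91.5, 87.5 and 72.6 FPKM, and the germ cell sum 1267, 931 and 512 FPKM against 615, 524, 491 and 439 FPKM. The MMERVK10C insertion at chr11:101648508-101653089 was 89.9, 173 and 15.2 CPM against 44.1, 21.5, 22.6 and 22.2 CPM. Its 3 highest libraries, WT replicates 2 and 1 and Mutant replicate 1, were also those of the piRNA sum and in the same order. In whole testes, fewer germ cells and less RNA per germ cell cannot be told apart, and the part of either in the locus results was not tested.

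The 8 Sertoli cell markers summed to between 904 and 1095 FPKM in the libraries labelled WT and between 1077 and 1195 FPKM in Mutant, while the 6 fetal Leydig cell markers, 5 of them higher at an unadjusted p under 0.05, summed to between 1602 and 2667 FPKM against between 2507 and 3083 FPKM. The 5 skeletal muscle markers summed to 25.1 FPKM in WT replicate 1, 14.4, 12.4 and 44.4 FPKM in Mutant replicates 1, 2 and 4, and 1.58 to 2.28 FPKM in the other 3 libraries. The summed levels of the other markers overlapped between the groups, at 61.1 to 74.6 against 65.5 to 68.8 FPKM for endothelial cells, 19.7 to 22.9 against 22.2 to 30.2 FPKM for macrophages, 5.10 to 9.54 against 7.58 to 22.8 FPKM for mast cells, 2548 to 4307 against 1061 to 3701 FPKM for erythroid cells, 7.89 to 10.8 against 7.40 to 9.37 FPKM for mesonephros and ducts, and 6.28 to 12.3 against 10.9 to 18.4 FPKM for adrenal cortex. None of these genes passed the threshold, and their part in the locus results was not tested.

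**Figure D5:**
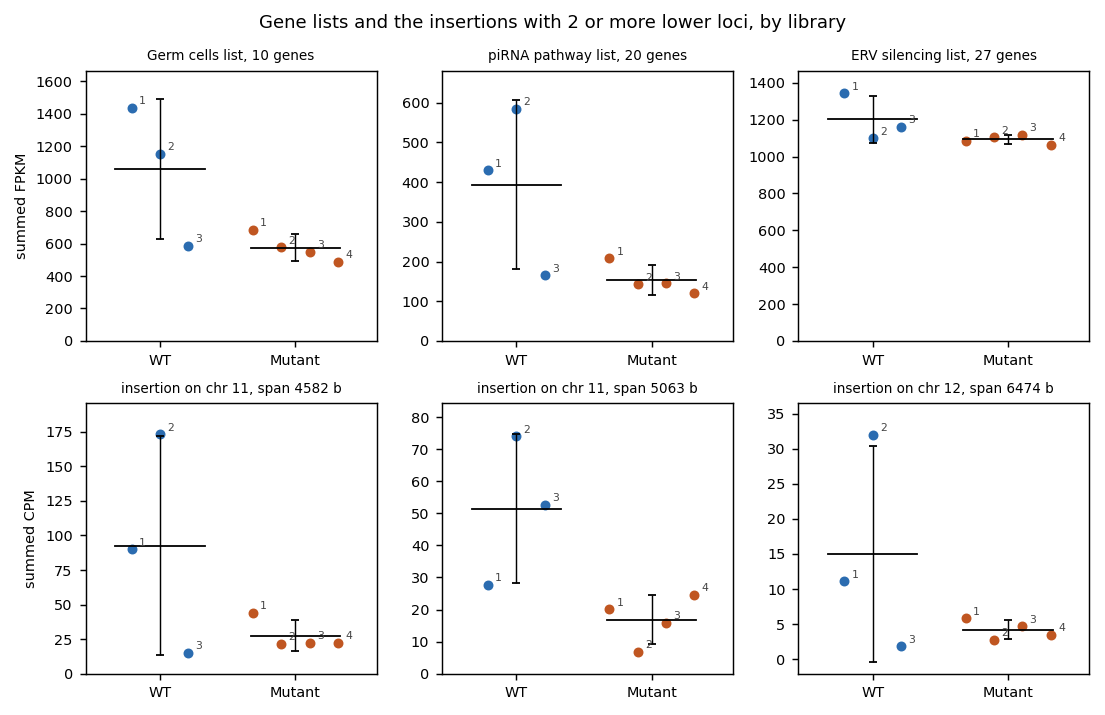
Upper panels, summed FPKM of the germ cell, piRNA and ERV silencing lists by library, and lower panels, summed CPM of the 3 insertions with at least 2 loci lower in Mutant, on linear axes with the group mean (line) and 1 SD (bar). In the left and right lower panels WT replicates 2 and 1 are the highest and the library labelled WT replicate 3 the lowest, and in the middle one the library labelled WT replicate 3 is the second highest.

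The sum over all 23725 members was 5973, 6173 and 5822 CPM in the libraries labelled WT and 6224, 7006, 6547 and 6563 CPM in Mutant on the TMM scale, and 0.670%, 0.596% and 0.586% of all reads against 0.629%, 0.737%, 0.598% and 0.620% without it. The groups were apart on the first scale and overlapped on the second.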

How the data were processed

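Total RNA of 1 pair of testes per embryo was depleted of ribosomal RNA and sequenced from random-primed, unstranded libraries. The authors aligned the reads with TopHat2 2.0.12 to mm10, kept reads that mapped to 1 place, and deposited counts per RepeatMasker locus (HTSeq) and FPKM per gene (Cuffnorm). The header of both tables lacks 1 tab between the names of WT replicate 3 and Mutant replicate 1, so these names were split and the columns taken in the header's order. No sample column was left unused.

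Loci that averaged 1 read or more over the libraries were tested with edgeR 4.0.16 (R 4.3.3; TMM, quasi-likelihood F test, two-sided, Benjamini-Hochberg over all 464695 loci, threshold 0.1). Reads were summed by element name and tested in the same way over 862 names. Genes that averaged 0.5 FPKM or more were tested with limma 3.58.1 on log2(FPKM + 0.5), with a threshold of 0.05. Exact permutation tests ran two-sided over the 35 splits of 7 libraries. DESeq2 1.42.0, other scalings and filters, a replicate block and leaving out each library were alternatives. A robust fit and a term for the MMVL30-int share (under or over 3%) were added after the data were seen. The scripts were tested on simulated data in which every locus had the same dispersion between libraries. That test does not cover the wide differences between libraries seen at some loci here. Depth was 3454317 to 4670830 reads per library, and 1430 of the 2057 tested members had a mean under 5 reads.

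Named loci were, with more than 15 past the threshold, up to 8 rises and 8 falls past it whose groups do not overlap, which gave 4 falls and 0 rises, plus the 6 members with the most reads per kilobase. The other loci were named after their values were seen. Named genes were Trim28, Setdb1, Dnmt1, Dnmt3l, Piwil2, Piwil4, Mael, Morc1, Glis3 and genes at named loci. Places came from the GENCODE M21 annotation of the same build, with bedtools 2.31.1. Members and lists were chosen with earlier results of these data known.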

Additional observations from a re-analysis of the deposited data

Results flagged for a closer look

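Each of 60 values was examined for a Mutant library far from the other 3, by the gap to its nearest neighbour as a share of the range of the 4 libraries, and 4 values lay above the critical value of 0.83. Chance alone flags about 1 in 20 such groups. At the MMERVK10C-int locus chr11:101650523-101653089 the share was 0.880, with Mutant replicate 1 at 38.0 CPM and the others between 18.2 and 20.5 CPM. At the RLTR10-int locus chr12:17857263-17858254 it was 0.957, with Mutant replicate 1 at 9.77 CPM and the others between 2.94 and 3.23 CPM. For Piwil4 it was 0.933, with Mutant replicate 1 at 1.64 FPKM and the others between 0.277 and 0.369 FPKM. For the summed MMERVK9 internal sequence it was 0.833, with Mutant replicate 4 at 979 CPM the lowest, and the others up to 1003 CPM.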

How the results depend on the processing

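The 23 member loci past the threshold became 1 with a mean of at least 10 reads, 7 with a robust fit, 14 with a term for the MMVL30-int share and 0 with DESeq2 (57 at an unadjusted p under 0.05, or 2.77%, against 1.11% of all loci), and between 7 and 32 when 1 library was left out, with 7 without WT replicate 2, 13 without Mutant replicate 1 and 10 without Mutant replicate 2. The calls over all loci, 375 in the reported fit, were 17, 237, 415 and 15 under the first 4 of these settings, and between 193 and 617 when 1 library was left out, with 193 without WT replicate 2, 302 without Mutant replicate 1 and 240 without Mutant replicate 2. Which of depth and spread set these counts was not tested. Of the 20 member names, 1 (ETnERV-int) passed with the MMVL30-int term, where 109 of all 862 names did. Of the silencing and piRNA genes, between 0 and 16 passed when 1 library was left out, the 16 without the library labelled WT replicate 3. The replicate block gave 19 member loci, where 205 of all loci passed (0.0441%), and 0 names and 0 genes. However, the labels do not say whether the numbers pair the samples. The correlations of same-numbered libraries, as deviations from their group means, were 0.03, -0.08 and 0.02. With so few libraries these values cannot settle whether samples were paired.

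The sign turned without WT replicate 2 for the sums of MMETn-int (-0.02 to 0.22 over all libraries left out in turn), MMERVK10C-int (-0.27 to 0.08) and RLTR10-int (-0.23 to 0.15), for MMERVK10C-int at chr5:114822402-114822894 (-0.25 to 0.04) and for Dnmt3l (-1.82 to 0.07). It turned without WT replicate 1 for Trim28 (-0.26 to 0.07) and Dnmt1 (-0.22 to 0.07), for MMERVK9E_I-int at chr7:48165760-48166835 without the library labelled WT replicate 3 (-0.08) or Mutant replicate 2 (-0.05), with 0.67 as the highest value, for RLTR10A without the library labelled WT replicate 3 (-0.08) or with library size only (-0.05), and for RLTR10 summed over the tested loci alone (-0.09), all as log2 fold changes. The causes were not tested. Most tested members had few reads, which limits what could be detected at a single locus.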
